A study of Arabidopsis thaliana with 8 samples.

Results

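The chloroplast genome of Arabidopsis thaliana encodes core subunits of the photosynthetic complexes, and 43 probe sets of the ATH1 array, a short-oligonucleotide array, each reported 1 of these genes. Members were taken from the platform annotation by their lower-case plastid symbols, and they were 43 of the 22810 probe sets on the array, with 1 probe set per gene. They comprised 15 genes of photosystem II or its assembly, 6 of the cytochrome b6f complex, 5 of photosystem I, 6 of the chloroplast ATP synthase, 10 of the NADH dehydrogenase-like (NDH) complex, and rbcL. A further member of the NDH family, ndhB, was left out because its probe set is listed for 2 gene copies. Its signals were 3.77 and 3.46 in heat-stressed polysome-bound mRNA, 3.48 and 3.66 in control polysome-bound mRNA, 6.13 and 3.80 in heat-stressed total mRNA, and 5.10 and 3.63 in control total mRNA (log2 scale), and it was not called in any comparison.

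In the thylakoid membrane, photosystem II splits water, the cytochrome b6f complex passes its electrons on, photosystem I reduces ferredoxin, and the ATP synthase uses the proton gradient that builds up. The NDH complex returns electrons from ferredoxin to plastoquinone around photosystem I, and Rubisco, whose large subunit is rbcL, fixes carbon dioxide. The plastid genes are mostly transcribed in clusters and translated on bacterial-type ribosomes inside the chloroplast, whereas the other subunits are nuclear-encoded and made on cytosolic ribosomes. Plastid mRNAs, like ribosomal RNA, do not depend on a stable poly(A) tail. The arrays were labelled by the manufacturer's standard protocol. The sources used here do not name its primer, an oligo(dT) primer binds poly(A) tails, and how completely each plastid mRNA was labelled was not measured.

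Columbia-0 seedlings, 7 days old, were exposed to 38°C for 45 min or kept at 22°C, and RNA was prepared from whole seedlings. There were 4 groups of 2 arrays, namely polysome-bound mRNA at 38°C (PB38), polysome-bound mRNA at 22°C (PB22), total mRNA at 38°C (TOT38) and total mRNA at 22°C (TOT22). Control plates came straight from the growth chamber. Polysome-bound RNA was pooled from the heavy fractions of a sucrose gradient. The buffer used to extract the tissue held cycloheximide and chloramphenicol, inhibitors of cytosolic and plastid ribosomes. By the study's methods, the total and the polysome-bound RNA of 1 replicate came from the same seedling sample, so that 4 seedling samples gave the 8 arrays. All values are log2 signals made by robust multi-array averaging (RMA), and a difference of 0 means no change relative to the average probe set. The deposited PB38 values also carry a factor for the lower polysome content after heat, and their array means are 5.30 and 5.25, against 6.15 to 6.18 on the other 6 arrays. The factor was divided out of every PB38 value below unless the text says that it was kept. With the factor divided out, both PB38 means were 6.15, near those of the other arrays. The array medians were less alike, at 5.94 and 6.03 in PB38 and 5.94 and 5.98 in TOT38. They were 6.165 and 6.11 in PB22 and 6.16 and 6.19 in TOT22. Fewer plastid genomes, fewer green cells and less mRNA per cell cannot be told apart in RNA from whole seedlings.

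Some controls and 1 set of replicates set the limits of these data. The members were higher in replicate 1 than in replicate 2 in 22 of 43 cases in PB38, 39 in PB22, 37 in TOT38 and 39 in TOT22, with median gaps of 0.01, 0.75, 0.33 and 1.09, whereas 53.3%, 48.5%, 51.1% and 46.7% of all probe sets were higher in replicate 1. The gap was thus largest between the TOT22 arrays, and the median heat effect and the number of calls in total mRNA are given below also without either of them. The probe set for 25S ribosomal RNA, a cytosolic RNA without a poly(A) tail, read 10.20 and 10.97 in PB38, 6.83 and 6.46 in PB22, 11.96 and 12.23 in TOT38, and 11.13 and 9.00 in TOT22. It was therefore higher at 38°C than at 22°C and lower in polysome-bound than in total mRNA, and its part in the members' differences was not tested. The 24 probe sets of the poly-A spike-in controls averaged 5.98 and 6.14 in PB38, 6.36 and 6.09 in PB22, 7.10 and 6.73 in TOT38, and 6.26 and 6.21 in TOT22. Nuclear genes of green tissue ranged from LHCB4.3, for a minor antenna protein, at 7.47 to 8.13, to RCA (Rubisco activase) at 13.59 to 14.25. Between them, the NDH subunit genes NdhN and NdhL read 9.48 to 10.45 and 9.57 to 10.67. The root gene PYK10, the only 1 of 6 listed root markers with a named probe set, read 12.46 to 13.27.

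**Figure D1:**
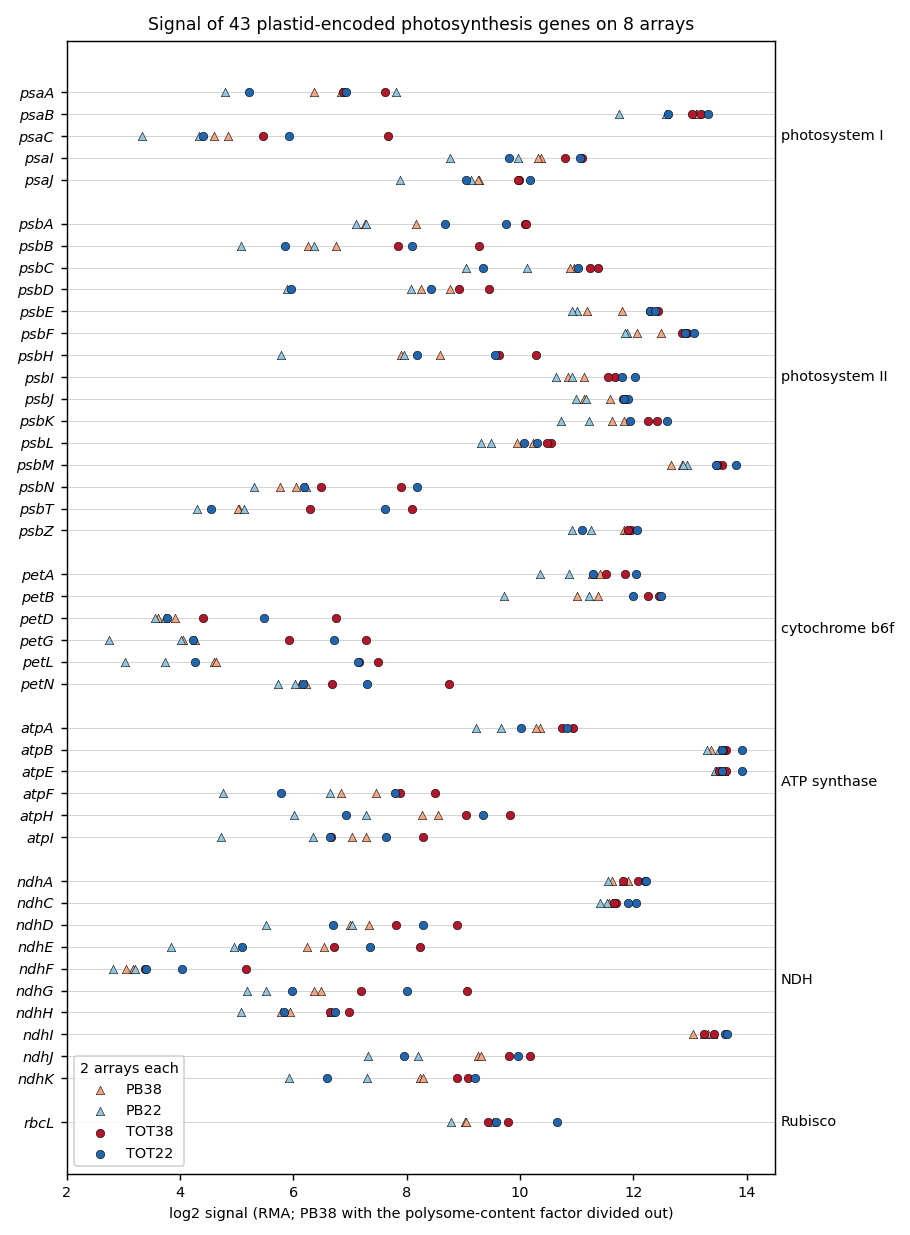
Log2 signal of each of the 43 members (rows, grouped by complex) on the 8 arrays, with triangles for polysome-bound and circles for total mRNA and red shades for 38°C and blue shades for 22°C, 2 arrays per group. In most rows the triangles lie left of the circles of the same temperature, and dim members such as petL (3.03 to 7.49) spread more than bright members such as atpE (13.44 to 13.92).

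Polysome-bound mRNA held less plastid photosynthesis mRNA, relative to the average probe set, than total mRNA did. The median member differed by -0.71 on the log2 scale at 38°C and by -1.09 at 22°C, against 0.00 over all probe sets at either temperature. At 38°C 42 of the 43 members were lower in PB38 than in TOT38, and at 22°C 42 were lower in PB22 than in TOT22. Both samples of a temperature were lower in 40 members at 38°C and in 42 at 22°C, against 34.4% and 32.0% of all probe sets, and both were higher in 0 members, against 36.0% and 32.0%. In every one of the 4 seedling samples, 39 of the 43 members were lower in polysome-bound than in total mRNA, which was so for 15.4% of all probe sets, and 0 members were higher in all 4, against 16.7%. The members' medians in the single seedling samples were -0.90 and -0.50 at 38°C and -1.19 and -0.79 at 22°C. When arrays were scaled to the spike-in controls instead, the medians were 0.15 at 38°C and -1.08 at 22°C, against 0.86 and 0.01 over all probe sets, so that the direction at 38°C turned while the distance from all probe sets, -0.71 and -1.09, stayed as it was.

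The differences were tested with limma, a linear model with a variance estimate shared across probe sets. The p-values were adjusted by Benjamini and Hochberg's method over the 22810 probe sets of the array, and a member was called where the adjusted p was below 0.05 and the difference reached 2-fold. Without regard to the pairing no member was called at either temperature, in the setting where 0.0921% of all probe sets were called higher and 0.649% lower at 38°C, and 0.0% either way at 22°C. At an unadjusted p under 0.05, 12 members were lower at 38°C and 18 at 22°C, and none was higher. Of all 22810 probe sets 1963 and 1147 were lower and 1525 and 826 higher at that limit. With the seedling sample as block, which the shared samples allow, 17 members were lower at 38°C and 23 at 22°C, and none was higher. Of all probe sets 1.34% and 0.688% were called lower and 0.307% and 0.0351% higher. Of the members, 13 were called at both temperatures, 76.5% of those at 38°C and 56.5% of those at 22°C. The paired counts depended on single samples. Leaving out either sample at 38°C gave 0 members at both temperatures, leaving out replicate 1 at 22°C gave 17 members at 38°C and 15 at 22°C, and leaving out replicate 2 at 22°C gave 17 and 29, with 1 residual degree of freedom left in each case.

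**Figure D2:**
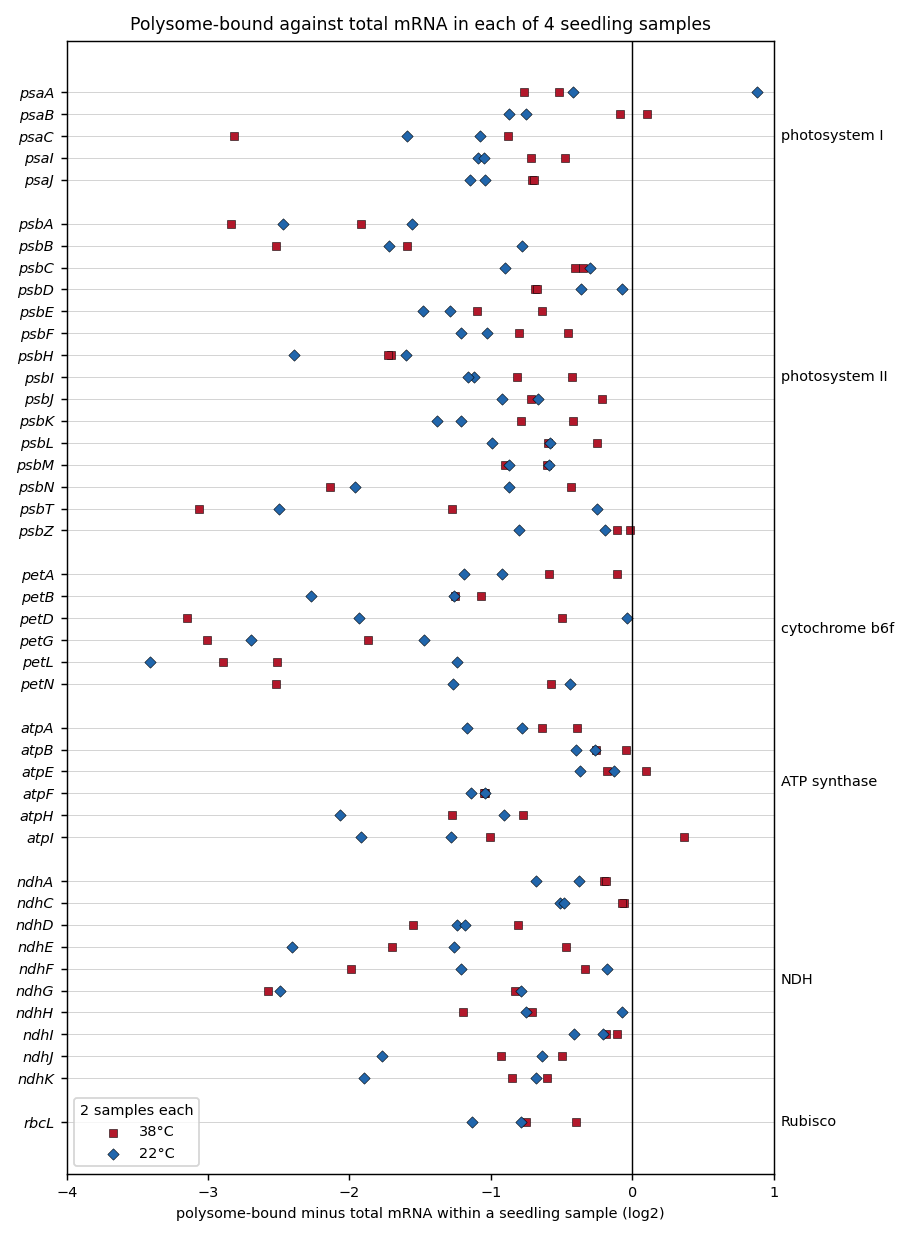
Polysome-bound minus total log2 signal of each member (rows, grouped by complex) within each of the 4 seedling samples, squares for 38°C and diamonds for 22°C. Nearly all points lie left of the line at 0, from -3.41 for petL in a 22°C sample to 0.88 for psaA in another 22°C sample.

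The genes of the cytochrome b6f complex had the most negative mean of the complexes, -1.67 at 38°C and -1.51 at 22°C. Several of them are dim probe sets. Across the 43 members the differences went with the mean signal, with Spearman's rho of 0.75 at 38°C and 0.41 at 22°C. Members with a mean signal of at least 11, from 8 to 11 and under 8 had medians of -0.35, -0.65 and -1.23 at 38°C. At 22°C these medians were -0.80, -1.08 and -1.27. Whether the complexes differ beyond brightness was not tested. The pair petL and petG encode small membrane subunits of cytochrome b6f. They had the lowest differences of all members at 38°C and the lowest measured ones at 22°C, where their PB22 signals were near background. For petL, the signals were 4.59 and 4.63 in PB38, against 7.49 and 7.15 in TOT38, and 3.73 and 3.03 in PB22, against 7.14 and 4.27 in TOT22. The PB38 and TOT38 values of petL were clearly apart. Its PB22 and TOT22 values did not overlap, but TOT22 replicate 2 came within 0.54 of the higher PB22 array. That is less than the gap between the replicates of either group. In the paired fit the difference of petL was -2.71 at 38°C (standard error 0.37, adjusted p = 0.00122 from limma, n = 2 samples) and -2.33 at 22°C (standard error 0.37, adjusted p = 0.00719). The same fit gave petG a difference of -2.44 at 38°C (adjusted p = 0.00065) and -2.09 at 22°C (adjusted p = 0.0038). Both are dim probe sets, petL and petG averaging 3.38 each in PB22, where the highest of the trpnX controls, probe sets for a bacterial transcript outside the spike-in set, read 3.05, so the size of these differences, and their rank at 22°C, is uncertain. For a bright member of the complex, petB (cytochrome b6), the difference was -1.16 at 38°C and -1.77 at 22°C, and both were called (adjusted p = 0.00324 and 0.00116). Further calls were petD, encoding subunit IV, and petN, a small subunit, at 38°C only, and petA, encoding cytochrome f, at 22°C only. The samples at 38°C gave unlike differences, -3.15 and -0.50 for petD and -2.52 and -0.58 for petN. The PB38 signals of petD, 3.61 and 3.90, were also near background. The signals of petA were 11.27 and 11.41 in PB38, against 11.86 and 11.52 in TOT38, and 10.86 and 10.36 in PB22, against 12.05 and 11.28 in TOT22. Its groups did not overlap at either temperature, and its difference of -0.35 at 38°C did not pass the test (adjusted p = 0.108), whereas that of -1.06 at 22°C did (adjusted p = 0.00304).

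In photosystem II, 5 of the 15 genes were called lower at 38°C and 8 at 22°C in the paired fit. The gene psbA encodes D1, the reaction centre protein that is replaced most rapidly in the light. Its signals were 8.17 and 7.26 in PB38, against 10.09 and 10.10 in TOT38, and 7.29 and 7.11 in PB22, against 9.76 and 8.67 in TOT22. All polysome-bound values of psbA were below all total values, with a difference of -2.38 at 38°C (standard error 0.23, adjusted p = 0.00031) and of -2.02 at 22°C (standard error 0.23, adjusted p = 0.00149). For psbB and psbH, which encode the core antenna protein CP47 and a small phosphoprotein, the differences were -2.06 and -1.72 at 38°C, and at 22°C psbB was 2.38-fold and psbH 3.99-fold lower in PB22, all called. The gene psbD encodes D2, the partner of D1 in the reaction centre, and read 8.77 and 8.25 in PB38, against 9.46 and 8.93 in TOT38, and 8.07 and 5.89 in PB22, against 8.43 and 5.96 in TOT22. At 22°C the psbD values differed more between replicates than between polysome-bound and total mRNA, whereas at 38°C both samples were lower in PB38. The differences were -0.68 at 38°C (adjusted p = 0.0035, under 2-fold) and -0.22 at 22°C (adjusted p = 0.313). The inner antenna gene psbC (CP43) and the small-subunit genes psbJ, psbL, psbM and psbZ were also without a call at either temperature, with differences from -0.75 to -0.06 at 38°C and from -0.80 to -0.50 at 22°C. The gene psbI, for a small subunit at the reaction centre, read 10.85 and 11.13 in PB38, against 11.67 and 11.56 in TOT38, and 10.91 and 10.64 in PB22, against 12.03 and 11.80 in TOT22. These groups did not overlap, and psbI was called only at 22°C, where the difference was -1.14 (adjusted p = 0.0011) beside -0.62 at 38°C. The cytochrome b559 genes psbE and psbF and the small-subunit gene psbK were likewise called only at 22°C (-1.39, -1.12 and -1.30), while psbT, another small subunit, was called only at 38°C (-2.17). The gene psbN, which is needed for the assembly of photosystem II in tobacco and is no subunit of it, was called at both (-1.29 and -1.42).

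In photosystem I, psaC, psaI and psaJ were lower in PB22 than in TOT22, and psaC alone was called at 38°C. The gene psaC encodes the subunit that carries the terminal iron-sulfur clusters, and it read 4.85 and 4.59 in PB38, against 7.67 and 5.47 in TOT38, and 4.34 and 3.32 in PB22, against 5.93 and 4.40 in TOT22. The polysome-bound values of psaC all lay below the total values of their temperature, with a difference of -1.85 at 38°C (adjusted p = 0.0047) and of -1.34 at 22°C (adjusted p = 0.04). The reaction centre genes psaA and psaB were without a call at either temperature. For psaB the signals were 13.11 and 13.13 in PB38, against 13.20 and 13.03 in TOT38, and 12.57 and 11.75 in PB22, against 13.32 and 12.62 in TOT22. Hence psaB was level between PB38 and TOT38 (0.01) but at -0.81 between PB22 and TOT22 (adjusted p = 0.004, under 2-fold). For psaA they were 6.84 and 6.36 in PB38, against 7.61 and 6.88 in TOT38, and 7.81 and 4.79 in PB22, against 6.93 and 5.21 in TOT22. The high value of psaA in PB22 replicate 1 made it the only member with a positive difference at 22°C, 0.23 (adjusted p = 0.637), and the other sample at 22°C gave -0.42.

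In the ATP synthase, the members called were genes of the membrane part. The genes atpF and atpH, for the stalk subunit b and the ring subunit c, were called at 38°C (-1.04 and -1.03) and at 22°C (-1.09 and -1.49). For atpF the signals were 7.46 and 6.84 in PB38, against 8.50 and 7.89 in TOT38, and 6.65 and 4.75 in PB22, against 7.79 and 5.79 in TOT22. The replicates of atpF lay far apart at 22°C, yet each seedling sample gave nearly the same difference, from -1.14 to -1.04. The gene atpI, for subunit a, read 7.28 and 7.03 in PB38, against 8.29 and 6.67 in TOT38, and 6.35 and 4.72 in PB22, against 7.63 and 6.64 in TOT22. The samples at 38°C thus gave opposite signs for atpI (-1.01 and 0.36), and only the difference at 22°C, -1.60, was called (adjusted p = 0.00866). Of the head subunits, atpE (epsilon) read 13.46 and 13.60 in PB38, against 13.64 and 13.51 in TOT38, and 13.55 and 13.44 in PB22, against 13.92 and 13.57 in TOT22. The values of atpE overlapped at 38°C, and its differences of -0.04 and -0.25 were not called, nor were those of atpB (beta), -0.15 and -0.33, or of atpA (alpha), -0.51 and -0.98.

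The NDH genes ranged widely. At 38°C ndhD, ndhE, ndhF and ndhG were called, all genes of the membrane arm, and at 22°C ndhD, ndhE and ndhG were called together with ndhJ and ndhK of the peripheral arm. The brighter membrane-arm genes ndhA and ndhC were not called at either temperature. The ndhF call is uncertain, as its PB38 signals of 3.17 and 3.04 were below the highest trpnX controls there, 3.25 and 3.16. Its samples at 38°C gave -1.99 and -0.34. For ndhE the signals were 6.54 and 6.24 in PB38, against 8.24 and 6.71 in TOT38, and 4.95 and 3.84 in PB22, against 7.36 and 5.10 in TOT22. They did not overlap at either temperature, with differences of -1.08 at 38°C (adjusted p = 0.0254) and -1.84 at 22°C (adjusted p = 0.00713). For ndhC, another gene of the membrane arm, they were 11.63 and 11.57 in PB38, against 11.69 and 11.65 in TOT38, and 11.53 and 11.42 in PB22, against 12.04 and 11.90 in TOT22. The ndhC values were close at 38°C (-0.07, adjusted p = 0.713), and -0.50 apart at 22°C (adjusted p = 0.0244, under 2-fold). Differences of ndhA, ndhI and ndhH were between -0.95 and -0.15 at 38°C and between -0.53 and -0.31 at 22°C, and none was called.

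For rbcL the signals were 9.03 and 9.04 in PB38, against 9.78 and 9.44 in TOT38, and 9.53 and 8.78 in PB22, against 10.66 and 9.57 in TOT22. The large subunit mRNA was lower in polysome-bound than in total mRNA in each of the 4 samples, with a difference of -0.57 at 38°C (adjusted p = 0.0137) and of -0.96 at 22°C (adjusted p = 0.00378), both under 2-fold.

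**Figure D3:**
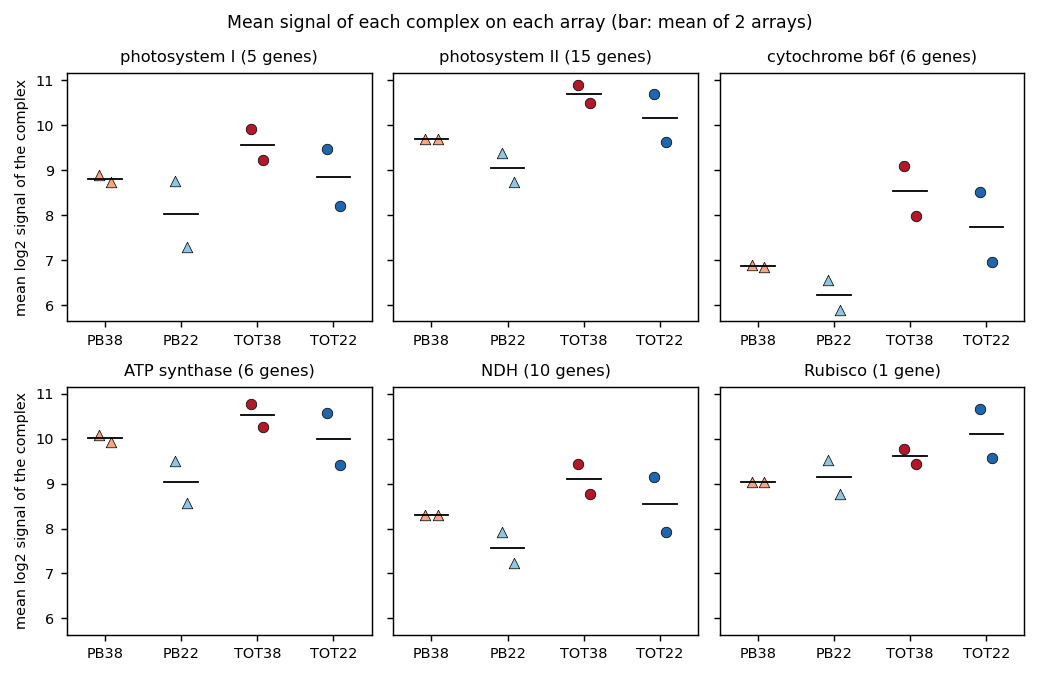
Mean log2 signal of the members of each complex on each array (points) and the mean of both arrays (bars), for PB38, PB22, TOT38 and TOT22. In each panel the polysome-bound means lie below the total means of the same temperature, and the TOT22 points are 1.08 to 1.58 apart.

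Plastid genes outside photosynthesis were lower in polysome-bound mRNA too, and nuclear photosynthesis genes lay near the average probe set. Of 26 other plastid-encoded genes, for ribosomal proteins, RNA polymerase and others, all were lower in PB38 than in TOT38 and in PB22 than in TOT22, with medians of -0.86 and -1.32, and 11 and 19 were called lower in the paired fit. Whether the members differed from these other plastid genes was not tested. The 25S ribosomal RNA probe set differed by -1.51 at 38°C and by -3.42 at 22°C. Of 64 listed nuclear photosynthesis genes 11 had a named probe set, and their medians were 0.05 at 38°C and -0.01 at 22°C, with 0 called in the paired or unpaired fit.

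In total mRNA, no plastid photosynthesis gene passed the test for a heat effect in the fit of group means. Of the 43 members 33 were higher in TOT38 than in TOT22, with a median difference of 0.51 against 0.03 over all probe sets, and 0 were called higher and 0 lower, where 4.63% of all probe sets were called higher and 7.06% lower. At an unadjusted p under 0.05 the limma fit also gave 0 members either way, against 3883 higher and 4834 lower of all 22810 probe sets. The TOT38 values of 7 members lay wholly above and those of 4 wholly below the TOT22 values, against 35.0% and 31.9% of all probe sets. The result depended on single arrays, mainly those of TOT22. Without TOT22 replicate 1 the median was 0.98 and 5 members were called higher, and without TOT22 replicate 2 the median was -0.01 and none was called. Without TOT38 replicate 2, 2 were called higher. With the arrays centred on their medians the median member stood at 0.725 against 0.245 over all probe sets. With the spike-in scaling the median was -0.17 against -0.65 over all probe sets, so the direction turned there. The distance of 0.48 from all probe sets remained in both settings.

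The mean heat effect in total mRNA was 0.53 for photosystem II, 0.81 for cytochrome b6f, 0.72 for photosystem I, 0.53 for the ATP synthase, 0.56 for NDH and -0.51 for rbcL. Within the complexes the values diverged. In photosystem II they ran from -0.30 for psbI to 2.00 for psbD (standard error 0.92, adjusted p = 0.157), and both TOT38 values of psbD, 9.46 and 8.93, exceeded the TOT22 values of 8.43 and 5.96. For psbA the effect was 0.88 (standard error 0.41, adjusted p = 0.161), again without overlap of TOT38 and TOT22. In cytochrome b6f the effects ran from 0.02 for petA (11.86 and 11.52 in TOT38, 12.05 and 11.28 in TOT22) to 1.62 for petL (standard error 0.81, adjusted p = 0.187), and in photosystem I from 0.14 for psaB to 1.41 for psaC (standard error 0.78, adjusted p = 0.23). The largest effects therefore came with standard errors close to 1 on the log2 scale. In the ATP synthase atpF had 1.41 (standard error 0.79) and atpE had -0.17 (standard error 0.16), and in NDH ndhE had 1.25 (standard error 0.80) and ndhC had -0.30 (standard error 0.13, adjusted p = 0.132). Both TOT38 values of ndhC lay below both TOT22 values, by small steps. The effect of rbcL was the lowest of all members, -0.51 (standard error 0.38, adjusted p = 0.367), with TOT38 at 9.78 and 9.44 and TOT22 at 10.66 and 9.57.

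The size of the heat effect in total mRNA went with the brightness of the probe set and with the replicate gap. The 15 members with a mean signal of at least 11 had a median effect of -0.09, the 10 members between 8 and 11 had 0.70, and the 18 members under 8 had 1.13. Spearman's rho between mean signal and heat effect was -0.72 over the 43 members (Pearson's r = -0.72), which share the same arrays. The rho between the heat effect and the gap of TOT22 replicate 1 over replicate 2 was 0.84 (Pearson's r = 0.84), and both measures contain the TOT22 arrays. These are descriptions across genes on 8 arrays, and genes are not independent replicates. Neither the position in the plastid gene order (rho = 0.04) nor the length of the gene (rho = 0.04) went with the heat effect.

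**Figure D4:**
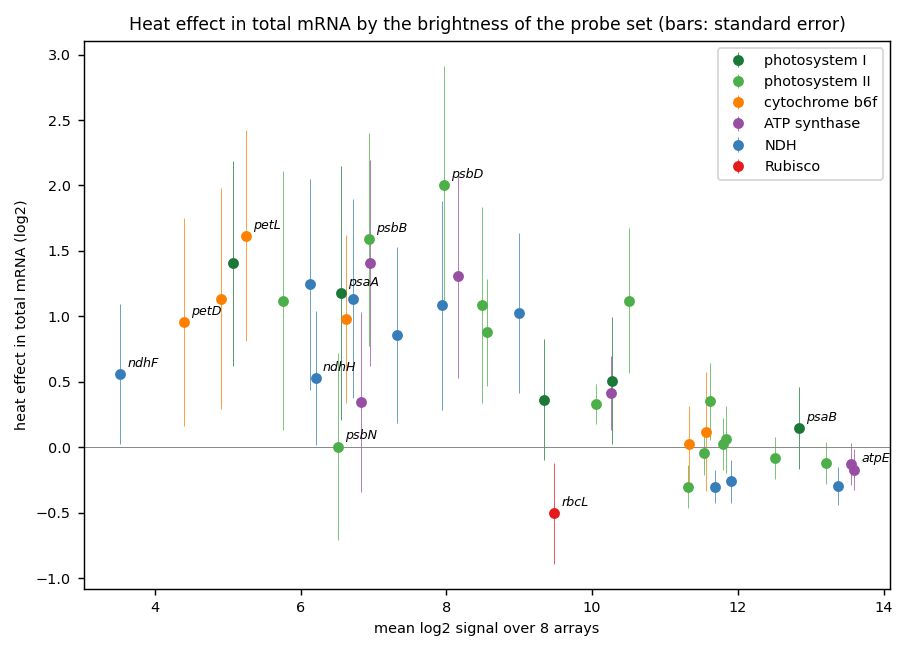
Heat effect in total mRNA (TOT38 minus TOT22, log2) of each member against its mean log2 signal over 8 arrays, coloured by complex, with standard errors as bars. Members under a signal of 8 reach from 0.01 to 2.00 with wide bars, and members of at least 11 lie between -0.30 and 0.35.

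In polysome-bound mRNA the members stood above the average probe set after heat. With the polysome-content factor kept, as deposited, the median member differed by -0.14 between PB38 and PB22, against -0.85 over all probe sets, and 2 of 43 were called lower and 0 higher, where 37.1% of all probe sets were called lower and 2.07% higher. The members called, named after their values were seen, were psbM, for a small subunit of photosystem II, and ndhI, for an iron-sulfur subunit of NDH. With the factor kept, psbM read 11.83 and 11.97 in PB38, against 12.95 and 12.87 in PB22, a difference of -1.01 (standard error 0.16, adjusted p = 0.00126 from limma). For ndhI the values were 12.22 and 12.43 in PB38, against 13.41 and 13.24 in PB22, 2-fold lower at the precision of the files (standard error 0.14, adjusted p = 0.000933). Both differences lay on the 2-fold limit and close to the average probe set, and 8 further members, rbcL, atpB, atpE, ndhA, ndhC, psbF, psbI and psbJ, had an adjusted p under 0.05 with a smaller difference. No member was called lower without PB38 replicate 1 or without PB22 replicate 1, and 5 were without PB22 replicate 2. The median turned to 0.13 without PB22 replicate 1 and was -0.50 without PB22 replicate 2, 0.995 and 0.345 above all probe sets. With the arrays centred on their medians, and the factor still kept, it was 0.01 against -0.70 over all probe sets.

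With the factor divided out, 39 of the 43 members were higher in PB38 than in PB22, with a median of 0.73 against 0.02 over all probe sets, and 0 were called either way, where 4.73% of all probe sets were called higher and 6.49% lower. Both PB38 values lay above both PB22 values in 24 members and below them in 1 member, against 31.7% and 31.1% of all probe sets. At an unadjusted p under 0.05, 11 members were higher and 0 lower, against 3471 and 4651 of all 22810 probe sets. The highest was ndhE, whose values of 6.54 and 6.24 in PB38 lay above 4.95 and 3.84 in PB22, a difference of 2.00 (standard error 0.81, adjusted p = 0.129). It was followed by atpH (1.77), ndhK (1.65), atpI (1.62) and psbD (1.53). The lowest were psbM (-0.14), ndhI (-0.13), rbcL (-0.12) and ndhH (-0.01). By complex, the means were 0.64 for photosystem II, 0.65 for cytochrome b6f, 0.78 for photosystem I, 0.97 for the ATP synthase and 0.73 for NDH. The PB22 arrays differed in these members by a median of 0.75 and the PB38 arrays by 0.01.

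The nuclear photosynthesis genes took the other side of the average. Of the 11 with a named probe set, 10 were called lower in PB38 than in PB22 with the factor kept (median -1.20), and with the factor divided out the median was -0.33 and 0 were called. In total mRNA their median was -0.30 and 0 were called. The lowest was ATPC1, the gamma subunit of the same ATP synthase, with -0.79 in total mRNA (12.20 and 12.56 in TOT38, 13.11 and 13.23 in TOT22), and the highest was LHCB4.3, a minor antenna protein of photosystem II, with 0.18. The other 26 plastid-encoded genes had medians of 0.28 in total and 0.63 in polysome-bound mRNA with the factor divided out, with 0 and 1 called higher.

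**Figure D5:**
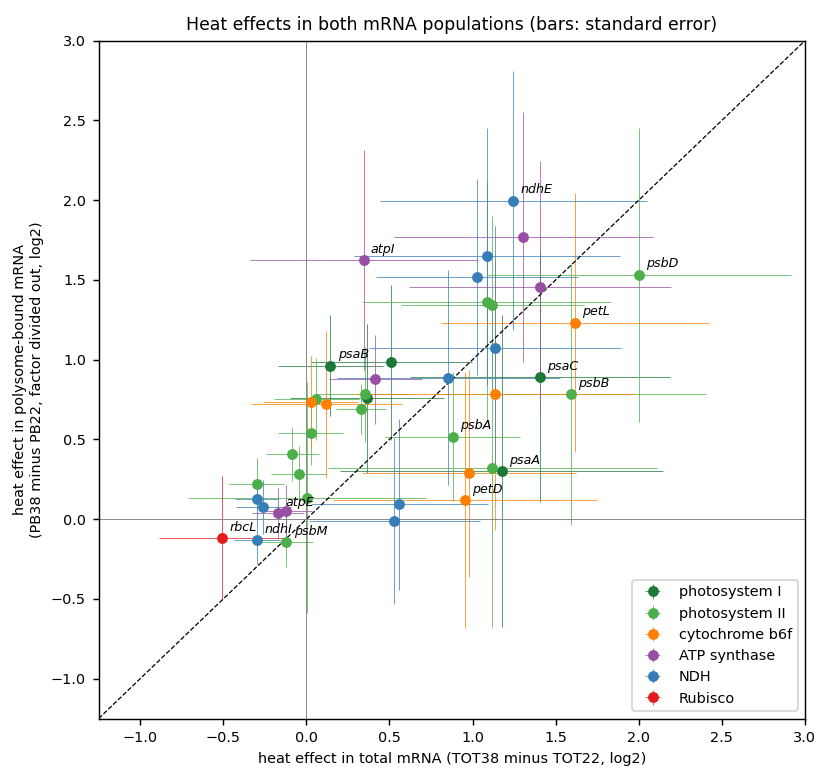
Heat effect in polysome-bound mRNA (PB38 minus PB22, factor divided out) against heat effect in total mRNA (TOT38 minus TOT22) of each member, both log2, coloured by complex with standard errors as bars and a dashed line of equal effects. Most points lie above 0 on both axes, and 29 of 43 lie above the dashed line.

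The heat effect in polysome-bound mRNA minus that in total mRNA asks whether an mRNA moved on or off the polysomes relative to the average probe set. The median member stood at 0.28, against 0.01 over all probe sets, and 29 of 43 were positive, against 11659 of all 22810 probe sets. The 26 other plastid-encoded genes had a higher median, 0.50, with 22 positive. The 11 nuclear photosynthesis genes had a median of 0.02, with 6 positive. Whether the members differed from either list was not tested. No member was called without the pairing, where 0.0% of all probe sets were called either way. At an unadjusted p under 0.05 in that fit 1 member was higher and 0 lower, against 549 and 783 of all 22810 probe sets. With the seedling sample as block 1 member was called higher and 0 lower, where 0.39% of all probe sets were called higher and 0.973% lower. It was psaB, encoding a reaction centre protein of photosystem I, at 0.82 (standard error 0.16, adjusted p = 0.0473 from limma), and no member was called in that fit without either sample at 38°C. The differences of psaB between polysome-bound and total mRNA were -0.09 and 0.10 in the samples at 38°C, against -0.75 and -0.87 in those at 22°C. Its partner psaA, in the same cluster, stood at the other end of the range, at -0.87 (adjusted p = 0.187), and atpI at the upper end, at 1.28 (adjusted p = 0.105). The samples at 38°C did not overlap those at 22°C in 17 members that were higher and 2 that were lower, against 27.3% and 24.3% of all probe sets. By the same rule 16 of the 26 other plastid-encoded genes were higher and 0 lower.

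The ATP synthase genes were all positive in this measure (6 of 6), photosystem I 3 of 5, photosystem II 10 of 15, NDH 7 of 10, rbcL at 0.39, and cytochrome b6f 2 of 6. The measure also went with the mean signal (Spearman's rho of 0.52). Members with a mean signal of at least 11, from 8 to 11 and under 8 had medians of 0.43, 0.39 and -0.42. Whether the complexes differ in it beyond brightness was not tested. The direction of the median over all 43 members depended on single arrays. Without TOT22 replicate 1 it was -0.38 and without PB22 replicate 2 it was -0.13, and over all 8 arrays left out in turn it ran from -0.38 to 0.82. With whole seedling samples left out of the paired fit it was positive in all 4 cases, from 0.09 to 0.42. It was negative with the factor kept (-0.59, against -0.86 over all probe sets).

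Genes of 1 cluster did not always share a value. In the gene order of the plastid genome (assembly TAIR10.1, used for neighbours only), atpB and atpE, which overlap in the genome, had heat effects in total mRNA of -0.12 and -0.17 and polysome-bound minus total differences of -0.15 and -0.04 at 38°C. Both are bright probe sets. By contrast psaA and psaB had heat effects of 1.18 and 0.14, psbD, psbC and psbZ had 2.00, 1.12 and 0.35, and ndhC, ndhK and ndhJ had -0.30, 1.08 and 1.02. In the psbB cluster, psbB, psbT, psbH, petB and petD had 1.59, 1.12, 1.08, 0.12 and 0.96, while psbN, which lies between psbT and psbH on the opposite strand, had 0.01. In each of these clusters the member with the lowest effect was also the brightest probe set, psbN aside. The same held in petN-psbM, psaI-petA, psbE-psbF-psbL-psbJ, petL-petG-psaJ and the cluster from ndhH to ndhD. There psbM (-0.12), petA (0.025), psbF (-0.085), psaJ (0.365) and ndhI (-0.295) had the lowest effect and the highest mean signal. Only the clusters of atpI and of psbK differed. Among atpI, atpH, atpF and atpA the lowest effect was that of atpI, the dimmest (0.345, mean signal 6.83), and the brightest was atpA (0.415, mean signal 10.26). Of psbK and psbI, psbI had the lower effect (-0.30 against 0.06) and the lower mean signal (11.32 against 11.83). Overlapping genes such as atpB and atpE, psbD and psbC, or ndhC and ndhK may share transcripts, and the probe sets cannot separate a cluster transcript from a processed one.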

How the data were processed

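The deposited values are on the log2 scale, summarised by the authors by RMA in affy (version not given in the sources used here), who multiplied the heat-stressed polysome-bound arrays by a polysome-content factor, which was here divided out on the log2 scale where stated. All 8 deposited columns were used. No reads or counts exist for arrays, so their number, 2 per group, limits the precision.

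Heat effects, their difference, and polysome-bound minus total differences were obtained from 1 model of group means over all 8 arrays by limma's lmFit and eBayes (limma 3.58.1, R 4.3.3), with Benjamini-Hochberg adjustment across the 22810 probe sets. Calls needed an adjusted p under 0.05 and, except for the difference between heat effects, at least 2-fold. Replicates are biological by the study's methods. The pairing was checked by the correlation of deviations from group means between total and polysome-bound arrays of the same seedling sample. Over all probe sets it was 0.76 at 38°C and 0.79 at 22°C, against 0.44 to 0.52 for arrays that share only the replicate number. Over the members it was 0.29 at 38°C and 0.54 at 22°C, against 0.14 to 0.63 for arrays that share only that number. The members alone therefore do not show the pairing, and the block rests on the study's methods and on all probe sets. The fit was also run on simulated arrays with 200 changed probe sets, for the heat effect in total mRNA and for polysome-bound minus total mRNA at 22°C. The other comparisons were not simulated, the 2-fold limit was not applied there, and no result above rests on it.

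The platform annotation listed 1 gene for 13513 probe sets, several for 503 and none for 8794, and 13436 of the 13513 matched the RefSeq table of TAIR10.1. Members and gene lists were chosen with earlier results of these data known. Per-array values were printed for psbA, rbcL, the highest and lowest heat effect in total mRNA per complex, and the highest and lowest difference between heat effects, and other members by range. Of lists for plastid sigma factors and the nuclear-encoded plastid RNA polymerase, 1 of 8 genes had a named probe set (AT5G15700, -0.28 in total mRNA after heat, not called). Alternatives covered scaling, a filter at a log2 signal of 6, 1 value per gene, limma's treat against 1.5-fold, pairing, the factor and single arrays. Sequences were not used here. Plots were made with Python 3.11.15 and matplotlib 3.10.9.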

Additional observations from a re-analysis of the deposited data

Results flagged for a closer look

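The heat effect on psaB was higher in polysome-bound than in total mRNA by 0.82 on the log2 scale (adjusted p = 0.0473 from limma with the seedling sample as block), and the difference itself was what the test addressed. Both samples at 38°C were above both samples at 22°C. Without the block the adjusted p was 0.902, and with it no member was called once either sample at 38°C was left out. A control outside the comparisons also stood out, as the 25S ribosomal RNA probe set was higher in TOT38 than in TOT22 by 2.03, with 11.96 and 12.23 in TOT38 and 11.13 and 9.00 in TOT22. Groups of 2 arrays were too small for a test of single outlying arrays.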

How the results depend on the processing

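All counts here are of the 43 members. For heat effects in total mRNA, 0 members were called higher, against 8 with the replicate number as block across temperatures (5.24% of all probe sets) and 0 to 5 when single arrays were left out. That number is not stated to pair samples across temperatures, and the deviations of arrays that share only the number correlated at 0.44 to 0.52 over all probe sets. Of members called lower there were 0, against 1 with spike-in scaling, an alternative chosen after seeing the data. For heat effects in polysome-bound mRNA the 2 members called lower became 0 with median centring, cyclic loess, the factor divided out or spike-in scaling, and 0 to 5 when single arrays were left out. Members called higher became 1 with the replicate number as block, with the 4 arrays of the comparison alone and with spike-in scaling. For the difference between heat effects, keeping the factor gave 4 lower, among them atpE, whose difference turned to -0.66 (adjusted p = 0.0356 from limma). Keeping it moved all probe sets down, to a median of -0.86, so atpE stayed above the average probe set. For polysome-bound minus total mRNA at 38°C that median was -0.87. Both counts with the factor kept, the 4 here and the 31 below, hold this shift. The seedling sample as block gave 1 higher. With that block and without replicate 1 at 22°C there were 3 higher and 3 lower, without replicate 2 at 22°C 4 higher and 1 lower, and without either sample at 38°C 0 either way. For polysome-bound minus total mRNA at 38°C, members called lower became 1 with the filter or with 1 value per gene, 3 with spike-in scaling, 31 with the factor kept, 17 with the seedling sample as block, and 17 with that block and without either sample at 22°C. At 22°C they became 23 with that block, and 15 or 29 with it and without replicate 1 or 2 at 22°C. The fits without a seedling sample were added after seeing the data. Of 182 such counts, 152 stayed within 1.5 times the count given first. The counts given first were all 0 except the 2 members called lower in polysome-bound mRNA. A 0 that stayed 0 falls within that limit, so this share does not measure how stable the calls were. Dim probe sets also limit these data, as ndhF (PB38, PB22 and TOT22), petD (PB38 and PB22), and petL, petG and psaC (PB22) had group means under 4, near the trpnX controls of up to 3.43.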
